A study of Mus musculus with 17 samples.

Results

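The 10 genes described here belong to the tumour necrosis factor (TNF) superfamily. Of these, 7 encode ligands (Tnfsf10, Tnf, Lta, Tnfsf11, Cd40lg, Fasl and Tnfsf8) and 3 encode receptors (Tnfrsf9, Cd27 and Fas). They were chosen by symbol, as a family list, out of the 24537 genes listed in each expression table, with earlier results of these data known. All 10 were listed in all 17 tables. The study asked what Notch receptors do in allergic airway inflammation, in particular in the exit of Th2 cells from the lymph node.

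The 17 libraries of sorted mouse T cells form 6 groups. They were made with Smart-seq2, which suits few cells and does not mark the strand. The airway group holds 3 libraries of Th2 cells from bronchoalveolar lavage, and the lymph node reporter group holds 3 libraries from the mediastinal node, which drains the lung. Both are labelled wild type and come from GATIR mice, in which a yellow fluorescent protein reports Gata3, the master regulator of Th2 cells. OTII mice carry a transgenic T cell receptor for ovalbumin. From the mediastinal node of OTII mice, 4 libraries are labelled Notch1/2 knockout and 3 are wild type. From spleens of OTII mice, 2 knockout-labelled and 2 wild type libraries hold naive T cells grown for 7 days with antibodies to CD3 and CD28 and with IL-4, while IFN-γ and IL-12/23 were blocked by antibodies. Reporter and OTII mice that gave airway or node cells all had an airway inflammation driven by allergen, and the cultured cells never met it. The labels used here give no age, allele or Cre driver. They call the libraries biological replicates but do not say whether each came from its own animal, so p-values measure the spread between these libraries. Reporter and OTII cells differ in mouse and in sort, so their levels are set side by side below without a test.

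Levels are scaled RPKM (reads per kilobase of transcript and megaread, with 1 scaling factor a library). Depth was 16.3 to 27.5 M reads (megareads) a library. Fold changes are differences of log2(scaled RPKM + 1), which understate changes of low genes. "Rose" and "fell" mark a Benjamini-Hochberg adjusted p under 0.05 in limma's test over all genes that passed a filter on low values. Notch1 had 10.1, 8.01, 12.6 and 12.9 in knockout-labelled node libraries, against 48.9, 48.5 and 46.2 in wild type ones. In culture it had 4.23 and 1.06 in knockout-labelled libraries, against 26.3 and 29.4 in wild type ones. Notch2 went against the label in the node, where it rose (16.2 on average in knockout-labelled and 7.88 in wild type libraries, log2 fold change 0.95, adjusted p = 0.000595 by limma). In culture Notch2 averaged 6.90 in knockout-labelled and 7.51 in wild type cells. The tables give 1 value a gene, so a deleted part of either gene cannot be seen in them. Summed over 6 T cell markers, every group lay between 1335 and 3539. Of the Th2 markers, Gata3 averaged 40.3 in knockout-labelled and 56.0 in wild type node OTII cells, 86.2 in knockout-labelled and 62.6 in wild type cultures, and 417 in airway and 404 in node reporter cells. Il5 averaged at most 1.80 and Il1rl1 at most 1.44 in any OTII group, while Il5 had 154 in airway and 160 in node reporter cells, and Il1rl1 203 in airway and 39.6 in node reporter cells. The other 3 were present in OTII cells: in the node Il4 averaged 19.7 in knockout-labelled and 44.7 in wild type cells, Ccr8 85.5 in knockout-labelled and 21.2 in wild type cells, and Il13 15.2 in knockout-labelled and 9.85 in wild type cells. In culture Il4 averaged 8.66 in knockout-labelled and 8.60 in wild type cells, and Ccr8 44.2 in knockout-labelled and 49.6 in wild type cells. Il13 there averaged 2.955 in knockout-labelled and 5.01 in wild type cells. Reporter cells had Il4 at 147 in airway and 474 in node, Ccr8 at 502 in airway and 178 in node, and Il13 at 37.2 in airway and 93.2 in node. Summed over the 6 Th2 markers, OTII libraries had 118 to 170 and reporter libraries 1019 to 1629.

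TNF superfamily ligands are mostly membrane proteins of activated immune cells that bind as trimers. Receptors of the family without a death domain (Tnfrsf9, Cd27) recruit TRAF adaptors and act as costimulators of T cells, whereas death receptors such as Fas recruit FADD and caspase-8. In Th2 responses CD40 ligand on the T cell licenses B cells for class switching, and Fas with its ligand limits activated T cells.

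The promoter windows of Tnfsf10, Tnf and Lta are shown because these 3 ligands had the largest fold changes of the 10 genes between knockout-labelled and wild type node cells. They are RefSeq sequences on GRCm38.p6, from 250 bases before to 50 bases after the start of the gene, 5′ to 3′ on the gene's strand. They lie at chr3:27316827-27317126 on the plus strand (Tnfsf10), chr17:35201958-35202257 on the minus strand (Tnf) and chr17:35205302-35205601 on the minus strand (Lta). Capitals mark TGGGAA, the core letters bound by RBPJ, the DNA-binding partner of Notch, on either strand.
Tnfsf10: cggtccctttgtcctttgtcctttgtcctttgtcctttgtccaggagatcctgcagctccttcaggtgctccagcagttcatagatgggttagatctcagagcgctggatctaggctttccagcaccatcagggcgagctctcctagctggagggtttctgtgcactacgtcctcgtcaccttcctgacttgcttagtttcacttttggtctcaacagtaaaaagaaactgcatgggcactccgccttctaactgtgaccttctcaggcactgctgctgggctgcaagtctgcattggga
Tnf: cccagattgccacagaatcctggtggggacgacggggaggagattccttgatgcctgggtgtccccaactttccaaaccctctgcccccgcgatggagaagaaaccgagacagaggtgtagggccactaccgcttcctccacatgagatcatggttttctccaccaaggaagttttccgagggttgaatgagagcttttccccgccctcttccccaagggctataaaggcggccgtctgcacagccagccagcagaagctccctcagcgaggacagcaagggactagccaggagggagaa
Lta: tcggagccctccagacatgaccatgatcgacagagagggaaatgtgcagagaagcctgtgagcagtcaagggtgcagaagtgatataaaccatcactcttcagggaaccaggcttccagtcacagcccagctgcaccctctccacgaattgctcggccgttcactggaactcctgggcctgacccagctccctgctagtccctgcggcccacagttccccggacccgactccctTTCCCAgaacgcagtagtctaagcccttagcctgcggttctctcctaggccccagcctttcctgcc
Among the 10 windows that RefSeq gave for 9 of the 10 genes, TGGGAA was found in that of Lta (shown on the opposite strand), that of Fas and 1 of 2 of Tnfrsf9. It is a common word, found on either strand in 25.6% of 32851 mouse promoter windows of this length. The kappaB motif, searched on both strands, was found in 1 window, the same one of Tnfrsf9 and overlapping its TGGGAA, against 4.51% of all windows.

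In the lymph node, 6 of the 10 genes rose in knockout-labelled against wild type OTII cells, all 6 of them ligands, and none fell. Over all 10869 genes tested, 10.4% rose and 7.68% fell. Because the 10 were chosen with earlier results of these data known, this contrast is a description and no test. The median log2 fold change was 0.74 over the 10 genes and 0.02 over all genes tested. Lta, Tnfsf10 and Tnf had differences of between 1.77 and 2.29 on the log2 scale, and Tnfsf11, Fasl and Cd40lg had 0.84, 0.76 and 0.71. Summed over the 7 ligands, the level was 320 ± 52.9 in knockout-labelled cells and 168 ± 15.4 in wild type cells (SD, n = 4 and 3). In RNA of sorted cells, more cells that express a gene cannot be told apart from more RNA per cell.

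Tnfsf10 (NM_009425, chromosome 3, 27317077 to 27339665 on mm10, plus strand) encodes TRAIL, which binds the death receptor encoded by Tnfrsf10b. It had 40.8, 48.2, 45.8 and 45.7 in knockout-labelled libraries, against 9.73, 8.74 and 9.11 in wild type ones. The 4 knockout-labelled libraries lay close together and far above the wild type range. The level was 4.91-fold higher (log2 fold change 2.18, SE 0.08, adjusted p = 2.69e-06 by limma), and Tnfsf10 ranked 3 by p among all genes tested.

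Tnf (chromosome 17, 35199367 to 35202007, minus strand) encodes the name-giving cytokine, which acts through Tnfrsf1a and Tnfrsf1b. Its level was 49.5, 39.1, 59.6 and 74.2 in knockout-labelled libraries, against 17.6, 13.7 and 14.3 in wild type ones. The groups did not overlap, and the knockout-labelled libraries were the more spread. The log2 fold change was 1.77 (SE 0.19, adjusted p = 0.000523 by limma).

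Lta (NM_010735, chromosome 17, 35203165 to 35205351, minus strand) encodes lymphotoxin-α, which is secreted or anchored by lymphotoxin-β. It reached 37.6, 31.7, 57.3 and 71.5 in knockout-labelled libraries, against 9.91, 8.08 and 8.56 in wild type ones. Knockout-labelled libraries 3 and 4 were the higher pair for both Tnf and Lta, and their column headers carry another first number than those of libraries 1 and 2. What that number stands for is not given in the sources used here. The log2 fold change of Lta was 2.29 (SE 0.25, adjusted p = 0.000491 by limma). Among knockout-labelled node libraries the coefficient of variation was 6.87% for Tnfsf10, 26.9% for Tnf and 37.0% for Lta.

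**Figure D1:**
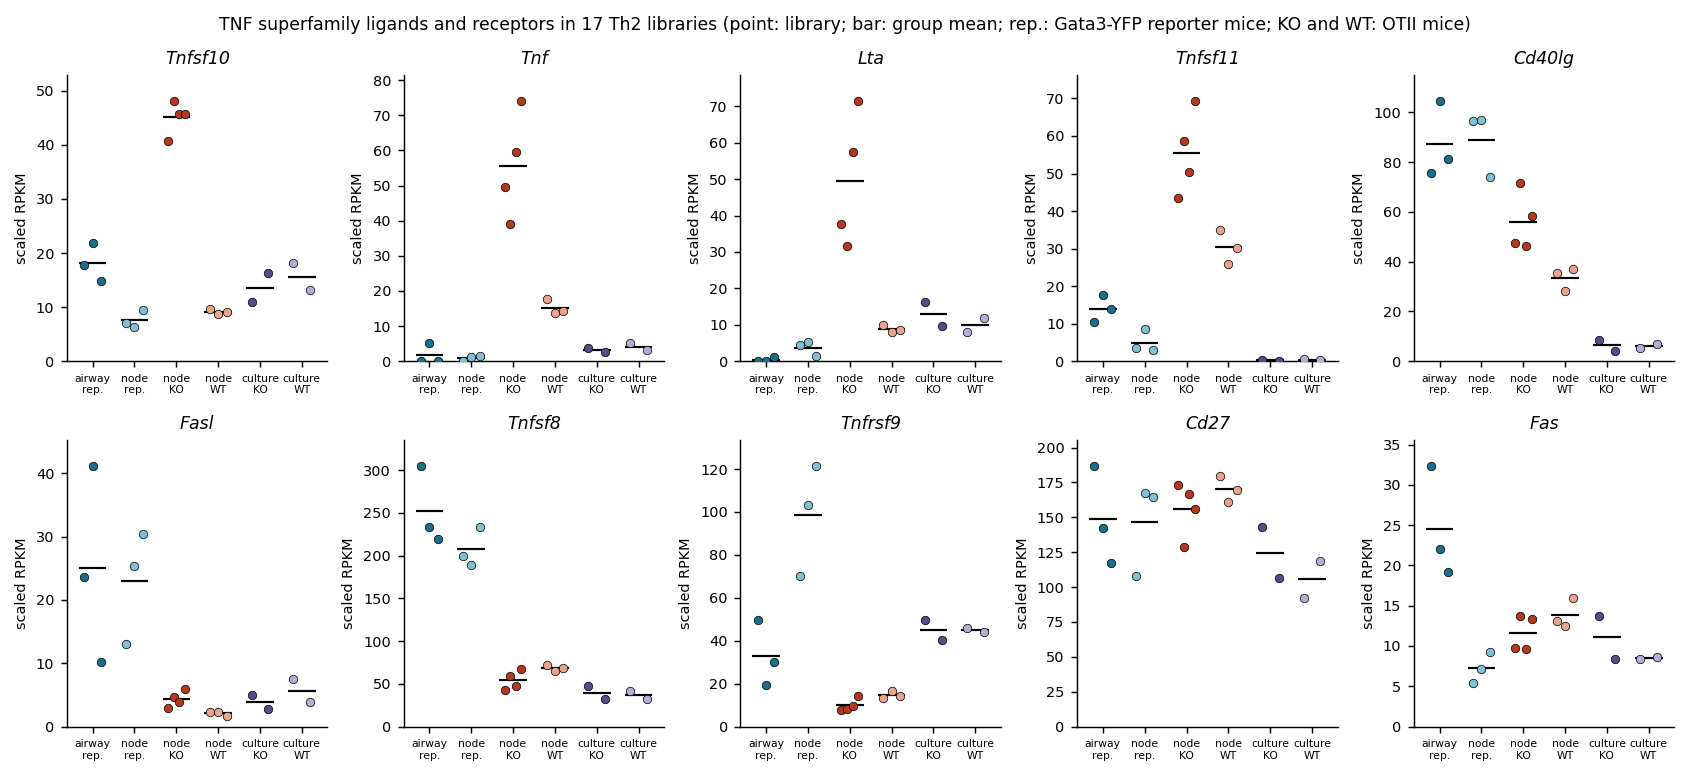
Scaled RPKM (vertical axes, from 0, a scale for each gene) of the 10 genes in each of the 17 libraries (points), with group means (bars), for airway and node Th2 cells of reporter mice and for knockout-labelled (KO) and wild type (WT) OTII cells of node and culture. Tnfsf10, Tnf, Lta and Tnfsf11 were highest in knockout-labelled node cells, whereas Tnfsf8, Cd40lg and Fasl were highest in reporter cells.

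Tnfsf11 (NM_011613, chromosome 14, 78277446 to 78308043, minus strand) encodes RANKL, which drives osteoclasts and supports lymph node development. It had 43.5, 58.7, 50.3 and 69.4 in knockout-labelled libraries, against 35.1, 25.9 and 30.1 in wild type ones. Every knockout-labelled library lay above every wild type one (log2 fold change 0.84, SE 0.16, adjusted p = 0.00776 by limma).

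Cd40lg (NM_011616, chromosome X, 57212143 to 57224042, plus strand) encodes CD40 ligand. It had 47.7, 71.5, 46.4 and 58.2 in knockout-labelled libraries, against 35.4, 28.3 and 37.0 in wild type ones. Again the groups did not overlap (log2 fold change 0.71, SE 0.16, adjusted p = 0.0154 by limma), but without wild type library 2 the adjusted p was 0.0729.

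Fasl (NM_001205243, chromosome 1, 161780692 to 161788495, minus strand), which encodes the ligand of Fas, was low in both groups. It had 2.89, 4.70, 3.87 and 5.97 in knockout-labelled libraries, against 2.29, 2.26 and 1.74 in wild type ones. The lowest knockout-labelled library was just above the highest wild type one (log2 fold change 0.76, SE 0.19, adjusted p = 0.0234 by limma). Leaving out any 1 of the 3 wild type libraries gave adjusted p of 0.055, 0.0663 and 0.0948, above the threshold.

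The seventh ligand and the 3 receptors did not pass. Tnfsf8 (NM_009403, chromosome 4, 63832824 to 63861284, minus strand), the ligand of CD30, had 43.1 to 67.2 in knockout-labelled libraries and 64.6 to 72.3 in wild type ones (log2 fold change -0.35, SE 0.14, adjusted p = 0.129 by limma). Tnfrsf9 (NM_001077508, chromosome 4, 150920155 to 150946102, plus strand), which encodes the costimulator 4-1BB, had 7.77, 8.27, 9.39 and 14.4 in knockout-labelled libraries, against 13.3, 16.3 and 14.2 in wild type ones. Only knockout-labelled library 4 reached the wild type range, and the log2 fold change was -0.54 (SE 0.18, adjusted p = 0.0753 by limma, 0.00744 without that library). Cd27 (NM_001033126, chromosome 6, 125232622 to 125237027, minus strand), a costimulator of naive and memory T cells that binds CD70, averaged 156 ± 19.4 in knockout-labelled and 170 ± 9.51 in wild type cells (SD, n = 4 and 3, log2 fold change -0.13, 95% interval -0.38 to 0.11). Fas (NM_007987, chromosome 19, 34290659 to 34327770, plus strand) averaged 11.6 ± 2.22 in knockout-labelled and 13.8 ± 1.90 in wild type cells (log2 fold change -0.24, 95% interval -0.58 to 0.09). Cd27 overlaps an antisense gene, E130112N10Rik, whose highest group mean was 3.04, and without strand their reads cannot be told apart.

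Markers of other cells were low in both node OTII groups. The 11 macrophage markers summed to 2.76 to 4.40 in knockout-labelled and 5.61 to 6.55 in wild type libraries (Cd68 fell among 2 tested, Car4 and Ear2 at 0). The 6 natural killer or CD8 T cell markers summed to 5.54 to 6.54 in knockout-labelled and 8.02 to 11.6 in wild type libraries (Klrb1c fell among 2 tested). The 7 basophil or mast cell markers summed to 0.134 to 0.713 in knockout-labelled and 2.32 to 2.72 in wild type libraries (Hdc, the 1 tested, fell; Mcpt8, Fcer1a and Ms4a2 at 0). The 4 eosinophil markers summed to 2.40 to 6.22 in knockout-labelled and 6.89 to 7.81 in wild type libraries, and the 4 neutrophil markers to at most 0.073 in knockout-labelled and 0.966 in wild type libraries. Only the epithelial sum was higher throughout in knockout-labelled libraries, at 0.885 to 1.97, against 0.472 to 0.685 in wild type ones (Epcam rose, while the other 3 markers were at 0). B cell sums (16.1 to 22.3 in knockout-labelled and 15.7 to 20.6 in wild type libraries) and dendritic cell sums (11.2 to 20.3 in knockout-labelled and 13.6 to 20.7 in wild type libraries, Cd209a at 0) overlapped. Of the 6 Th2 markers, Ccr8 rose while Gata3, Il4 and Il1rl1 fell, and of the 6 T cell markers Cd3g rose. The part of these shifts in the ligand results was not tested.

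The rest of the family was read from lists of 11 other ligands, 25 other receptors and 26 adaptors and signal genes. Of the other ligands only 4 passed the filter in the node, and 3 of them rose in knockout-labelled cells, with a median log2 fold change of 0.94. Over all genes tested there, 10.4% rose and 7.68% fell. Tnfsf14, which encodes LIGHT, a ligand of the herpesvirus entry mediator, averaged 73.4 ± 19.5 in knockout-labelled and 12.6 ± 2.39 in wild type cells (SD, n = 4 and 3, log2 fold change 2.43, SE 0.21, adjusted p = 0.000163 by limma). Ltb, which encodes lymphotoxin-β, averaged 591 ± 146 in knockout-labelled and 214 ± 35.8 in wild type cells (log2 fold change 1.44, SE 0.21, adjusted p = 0.00211 by limma). The third was Tnfsf13b, named after its value was seen (4.24 in knockout-labelled and 2.81 in wild type cells, log2 fold change 0.45, adjusted p = 0.0372 by limma), which was lost in 5 of the 7 fits that left out 1 library. The only other ligand tested, Tnfsf9, which encodes the ligand of 4-1BB, had 4.48 in knockout-labelled and 4.08 in wild type cells and did not pass.

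Of the 14 other receptors tested, 4 rose and 2 fell, beside 10.4% and 7.68% of all genes tested. The median log2 fold change of these 14 was 0.15. With 1 library left out, 3 to 6 rose and 1 to 3 fell, the 6 and 3 without knockout-labelled library 2. Both receptors of TNF rose: Tnfrsf1a averaged 22.4 ± 2.94 in knockout-labelled and 10.01 ± 0.281 in wild type cells (log2 fold change 1.08, SE 0.11, adjusted p = 0.000343 by limma). Tnfrsf1b averaged 38.7 in knockout-labelled and 23.3 in wild type cells (log2 fold change 0.70, SE 0.13, adjusted p = 0.00633 by limma). The other 2 that rose, named after their values were seen, were Tnfrsf10b, the receptor of TRAIL (3.01 in knockout-labelled and 1.80 in wild type cells, adjusted p = 0.0142 by limma, 0.0644 and 0.0586 without wild type library 2 or 3), and Tnfrsf25, a death domain receptor of T cells (21.1 in knockout-labelled and 14.4 in wild type cells, adjusted p = 0.0108 by limma). The costimulator Tnfrsf4, which encodes OX40, fell to 91.5 in knockout-labelled cells, against 144 in wild type cells (log2 fold change -0.64, SE 0.10, adjusted p = 0.003 by limma). With the spread taken from all 11 OTII libraries, the calls of Tnfrsf4 (adjusted p = 0.0698 by limma) and Tnfrsf25 (0.111) were lost. Tnfrsf22, a decoy receptor of TRAIL, fell at low levels of 1.76 in knockout-labelled and 2.91 in wild type cells (log2 fold change -0.50, adjusted p = 0.0125 by limma, 0.0729 without wild type library 3). Of the 26 adaptors and signal genes, 4 rose and 1 fell, with a median of 0.07, beside 10.4% and 7.68% of all genes tested. The 4 that rose, by 0.45 to 0.59 on the log2 scale, were Birc3, Cyld, Traf1 and Mlkl, named after their values were seen. Of these, Birc3 kept its call in all 7 fits that left out 1 library, and Cyld, Traf1 and Mlkl lost theirs in 1, 4 and 5 of them. The call of the 1 that fell, Otulin, a deubiquitinase of linear chains (31.1 in knockout-labelled and 36.6 in wild type cells), was lost in 6 of 7 such fits. Without wild type library 2, 1 of these 26 rose and none fell.

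**Figure D2:**
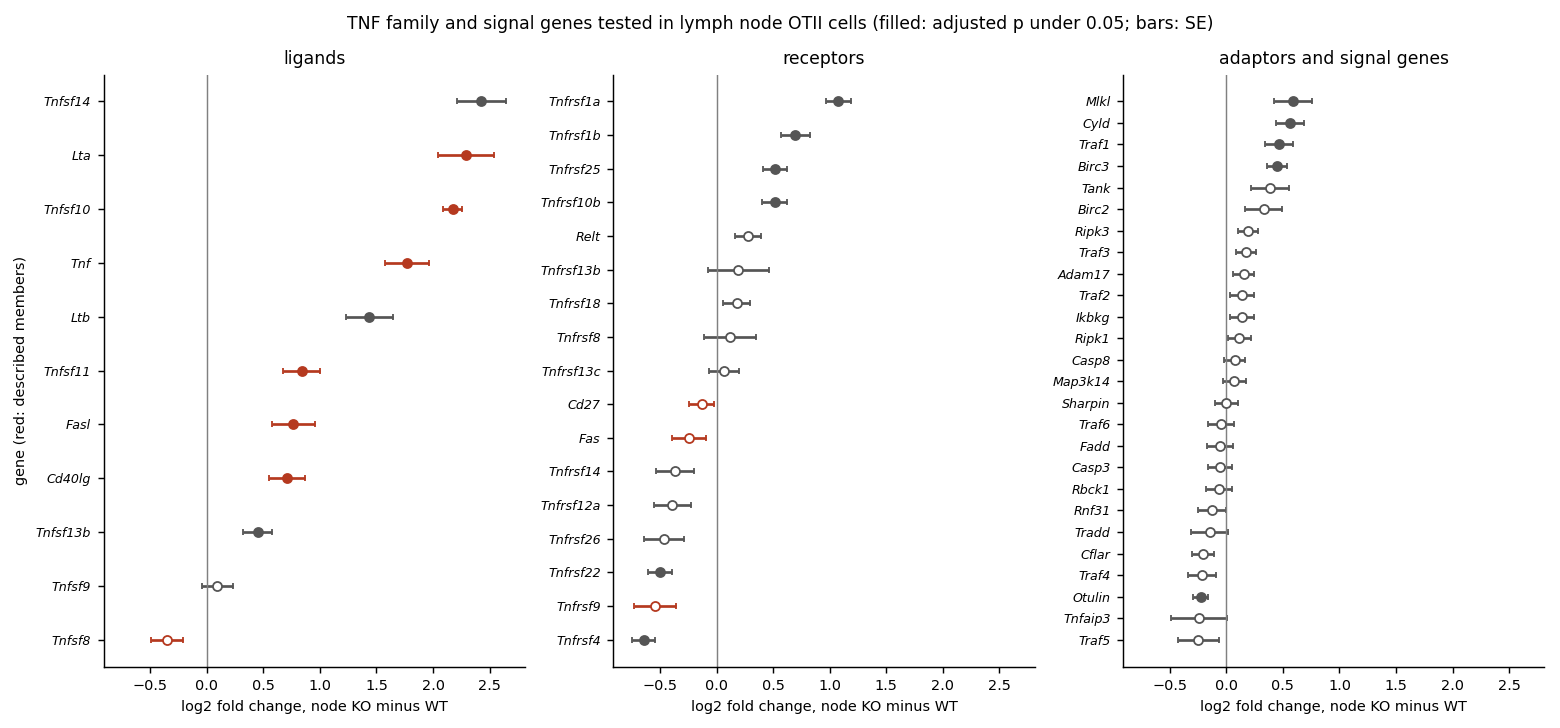
Log2 fold change of scaled RPKM + 1, knockout-labelled minus wild type node OTII cells (horizontal axes, points with SE bars), for each tested ligand, receptor and adaptor of the TNF family, ordered by size, filled where the adjusted p is under 0.05. Ligands reach 2.43 (Tnfsf14), receptors 1.08 (Tnfrsf1a) and adaptors 0.59 (Mlkl).

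Tnf, Lta and Ltb are neighbours in the major histocompatibility complex. Ltb and Tnf are 3061 bases apart, and Tnf and Lta 1157. All 3 rose, with log2 fold changes of 1.44, 1.77 and 2.29 in their order along the chromosome. The genes on either side were looked at after these values were seen. Lst1, on the far side of Ltb, rose too (5.11 in knockout-labelled and 2.44 in wild type cells, log2 fold change 0.82, adjusted p = 0.0308 by limma), a call kept only without knockout-labelled library 2 among the 7 fits that left out 1 library. Nfkbil1, on the far side of Lta, had 27.5 in knockout-labelled and 19.0 in wild type cells, short of the threshold (a difference of 0.48 on the log2 scale, adjusted p = 0.193 by limma). A microRNA gene inside Lta, Mir6974, shares its reads with Lta and is not counted apart from it. Both neighbours of Cd40lg rose: Arhgef6 had 54.7 in knockout-labelled and 35.9 in wild type cells (log2 fold change 0.59, adjusted p = 0.00935 by limma), and Gm14718 had 3.42 in knockout-labelled and 0.735 in wild type cells (log2 fold change 1.30, adjusted p = 0.0137 by limma, 0.0644 without wild type library 2).

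**Figure D3:**
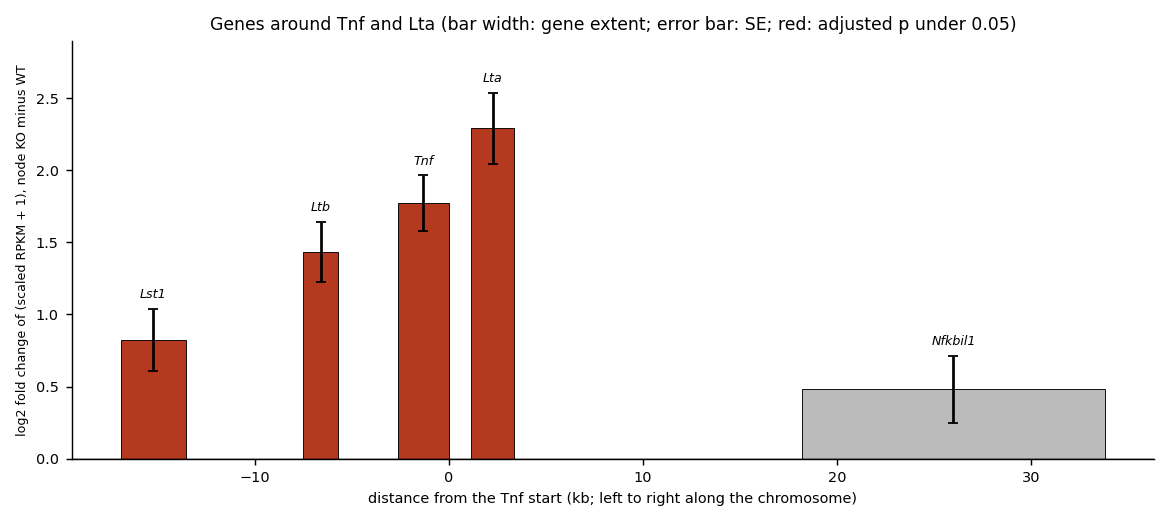
Log2 fold change of scaled RPKM + 1, knockout-labelled minus wild type node OTII cells (vertical axis, bars from 0 with SE), for genes around Tnf and Lta, placed by distance from the start of Tnf in kilobases (horizontal axis, bar width the extent of the gene). The bars of Ltb, Tnf and Lta (1.44, 1.77 and 2.29) stand above those of Lst1 (0.82) and Nfkbil1 (0.48, grey, not past the threshold).

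In culture none of the 9 genes tested passed between knockout-labelled and wild type cells, and none of them had an unadjusted p under 0.05. Tnfsf11 was under the filter there. By limma 0% of all 10968 genes tested rose and 0% fell, with 256 at an unadjusted p under 0.05, and limma's voom on reads called 2 genes. With 2 libraries a group, Notch1 itself stayed short of the threshold, at -3.14 on the log2 scale (adjusted p = 0.333 by limma).

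Tnfsf10 had 10.9 and 16.3 in knockout-labelled cultures, against 18.2 and 13.1 in wild type ones. The groups overlapped (log2 fold change -0.20, 95% interval -0.74 to 0.34), and the interval lay below the 2.18 seen in the node. Tnf had 3.71 and 2.66 in knockout-labelled cultures, against 5.11 and 3.07 in wild type ones (log2 fold change -0.27, 95% interval -0.84 to 0.31). Lta had 16.1 and 9.78 in knockout-labelled cultures, against 7.95 and 11.8 in wild type ones (log2 fold change 0.34, 95% interval -0.26 to 0.95). Both pairs of groups overlapped. The other 6 tested genes had log2 fold changes of between -0.42 (Fasl) and 0.31 (Fas), and overlapped as well. None of 5 other ligands, 16 other receptors and 26 adaptors passed, with 0, 1 and 0 at an unadjusted p under 0.05.

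The difference between the knockout effect in the node and that in culture was tested as an interaction over the 11 OTII libraries. It was positive past the threshold for 3 of the 10 genes and negative for none, against 2.35% positive and 1.49% negative of all 11508 genes tested. Tnfsf10 had a difference of 2.37 on the log2 scale (SE 0.23, adjusted p = 0.000363 by limma). That of Tnf was 2.04 (SE 0.35, adjusted p = 0.00855 by limma, 0.0562 without knockout-labelled culture 2). That of Lta was 1.95 (SE 0.44, adjusted p = 0.0357 by limma), a call lost in 7 of the 11 fits that left out 1 library, at adjusted p of up to 0.164. Without knockout-labelled culture 2, Tnfsf10 alone of the 10 passed. Tnfsf11 (0.98), Fasl (1.18) and Cd40lg (0.76), which rose in the node, had interaction adjusted p of 0.0658, 0.142 and 0.294 by limma. Tnfsf11 entered this test only through its node libraries, as its scaled RPKM was at most 0.475 in every culture. Its value therefore cannot show whether the knockout effect differs, and is not read. Of the family lists, Tnfsf14 (2.60, adjusted p = 0.00208 by limma) and Tnfrsf1a (1.29, adjusted p = 0.00514 by limma) passed, both positive.

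**Figure D4:**
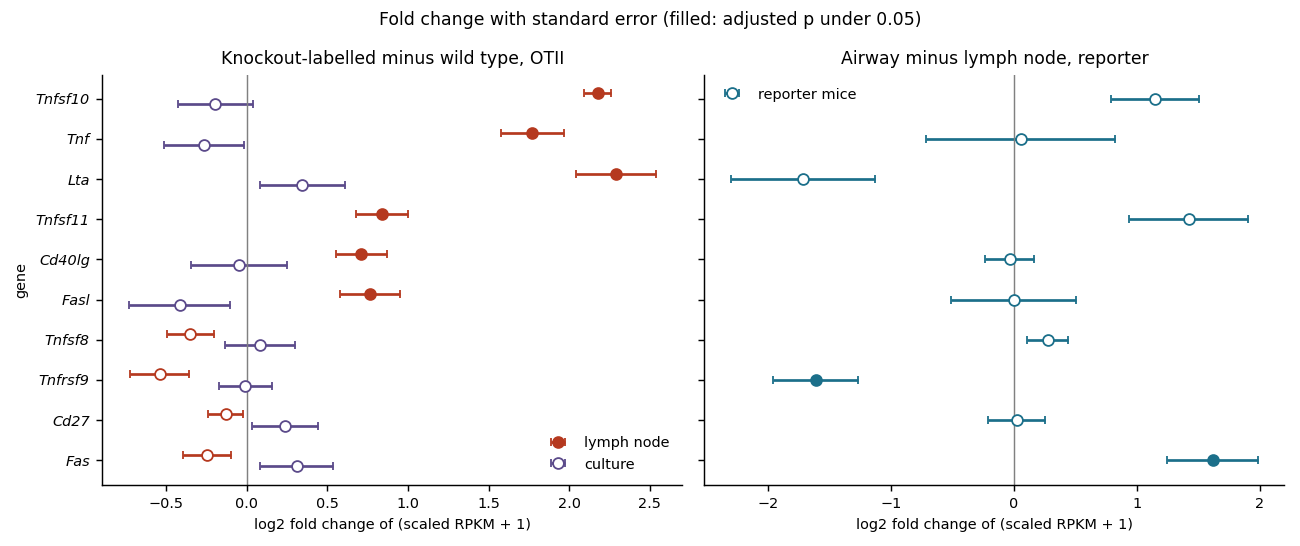
Log2 fold change of scaled RPKM + 1 with SE (horizontal axes) for the 10 genes, knockout-labelled minus wild type OTII cells in node and culture (left) and airway minus node Th2 cells of reporter mice (right), filled where the adjusted p is under 0.05. The node points of Tnfsf10, Tnf and Lta lie at 1.77 to 2.29 and their culture points at -0.27 to 0.34, and Tnfsf11 was not tested in culture.

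In reporter mice, airway against lymph node, 1 of the 10 genes rose (Fas) and 1 fell (Tnfrsf9), against 2.97% that rose and 2.3% that fell of all 10111 genes tested. The median log2 fold change was 0.04 over the 10 genes and -0.07 over all genes. Fas had 32.3, 22.03 and 19.2 in airway libraries, against 5.42, 7.16 and 9.21 in node ones. The lowest airway library had more than the highest node one (log2 fold change 1.62, SE 0.37, adjusted p = 0.0387 by limma). Tnfrsf9 had 49.6, 19.4 and 29.9 in airway libraries, against 70.3, 103 and 121 in node ones, again without overlap (log2 fold change -1.61, SE 0.35, adjusted p = 0.0313 by limma). Neither call was firm: that of Fas was lost whichever library was left out (adjusted p of 0.0547 to 0.15), and that of Tnfrsf9 was lost in 5 of 6 such fits (up to 0.144) and kept without airway library 1 (0.0111).

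The other 8 genes did not pass. Tnfsf10 had 17.8, 21.8 and 14.9 in airway libraries, against 7.14, 6.39 and 9.41 in node ones (log2 fold change 1.15, SE 0.36, adjusted p = 0.111 by limma). Tnfsf11 had 10.5, 17.7 and 13.9 in airway libraries, against 3.42, 8.50 and 2.95 in node ones (log2 fold change 1.42, SE 0.48, adjusted p = 0.141 by limma). For both genes every airway library lay above every node library. How many of all genes tested separate in this way was not counted, so the separation is a description only. Lta had 1, 0 and 29 reads in airway libraries, against 128, 140 and 37 in node ones (log2 fold change -1.72, SE 0.59, adjusted p = 0.141 by limma). Tnf had 0, 163 and 0 reads in airway libraries, against 2, 35 and 48 in node ones, and its direction turned with the pseudocount and the scaling. Zeros were more frequent in the airway: among the 3073 genes that reached 20 in every OTII library, the airway libraries listed 38, 49 and 2 at 0 and the node reporter libraries 1, 0 and 1. The levels of Tnf and Lta in the airway are therefore not ranked against other groups. Tnfsf8, Cd40lg, Cd27 and Fasl had log2 fold changes of between -0.03 and 0.27, with ranges that overlapped.

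Macrophage markers moved with the airway: the 11 summed to 3216 to 7631 in airway libraries and to 10.99 to 49.99 in node ones, and all 9 tested rose, while Mrc1, Car4, Ear2, Marco, Adgre1 and Clec7a were at 0 in all node reporter libraries. Basophil or mast cell markers summed to 179 to 319 in airway and 593 to 915 in node libraries (Mcpt8 and Hdc fell among 3 tested, Fcer1a, Ms4a2 and Gata2 at 0 in all 6 libraries). B cell markers summed to 5.70 to 43.6 in airway and 34.8 to 58.9 in node libraries (Cd79b fell), and dendritic cell markers to 94.2 to 114 in airway and 29.3 to 70.4 in node libraries. Epithelial markers summed to 8.65 to 90.2 in airway and 0.203 to 9.27 in node libraries, and neutrophil markers to 3.79 to 17.1 in airway libraries and 0 in node ones (S100a8 rose). The 4 eosinophil markers summed to 20.3 to 33.9 in airway and 8.78 to 17.3 in node libraries (neither of 2 tested passed, Epx at 0 in all 6 libraries), while the natural killer or CD8 T cell sums, 8.43 to 14.2 in airway and 6.78 to 16.6 in node libraries, overlapped. Of the 6 Th2 markers, Il1rl1 and Ccr8 rose and Il4 and Il13 fell, and none of the 6 T cell markers passed. Their part in the airway results was not tested.

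Of 14 other receptors tested in the reporter cells, Tnfrsf18, the costimulator GITR, rose to 1049 ± 102 in airway cells, against 567 ± 82.5 in node cells (SD, n = 3 each). Its log2 fold change was 0.89 (SE 0.14, adjusted p = 0.00926 by limma, 0.0562 with no filter on low values). Tnfrsf13c, the receptor of the B cell factor BAFF, fell (adjusted p = 0.00839 by limma, 0.0506 without node library 3). It was listed at 0 in all 3 airway libraries and at 6.12 to 8.98 in node ones. This call rests on airway zeros, which were more frequent as given above, so the size of the fall is not read. None of 3 other ligands passed, but 1 did without node library 1. Of 26 adaptors 2 rose and 2 fell, beside 2.97% that rose and 2.3% that fell of all genes tested. Tnfaip3, which encodes A20, an inhibitor of NF-κB signalling, averaged 146 ± 68.3 in airway and 23.0 ± 6.43 in node cells (SD, n = 3 each). Its log2 fold change was 2.56 (SE 0.34, adjusted p = 0.00505 by limma). Traf1 (82.9 in airway and 42.8 in node cells) rose, and Ripk3 (110 in airway and 183 in node cells) and Traf5 (14.4 in airway and 43.7 in node cells) fell. They passed by limma at adjusted p of 0.0337, 0.0269 and 0.035, and lost the call in 5, 4 and 5 of the 6 fits that left out 1 library.

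Lymph node and cultured OTII cells were compared within each genotype. They differ at once in source, stimulus and time. In wild type cells 6 of the 10 genes rose and 3 fell in the node against culture, with 13.5% higher and 17.5% lower among all 11108 genes tested. In knockout-labelled cells 5 rose and 1 fell, with 13.7% higher and 15.3% lower among all 11227 genes tested. Tnfsf11 had the largest differences of the 10 in both. It had 8 and 11 reads in knockout-labelled and 10 and 21 reads in wild type cultures, where all scaled RPKM were at most 0.475, so that 55.5 ± 11.2 (SD, n = 4) in knockout-labelled and 30.4 ± 4.58 (SD, n = 3) in wild type node cells stood against traces in culture. The log2 fold change was 5.51 (SE 0.18) in knockout-labelled and 4.54 (SE 0.16) in wild type cells, with adjusted p of 1.91e-06 and 9.83e-06 by limma. Tnfsf11 passed the filter in both comparisons only through its node libraries, so these p-values are not read as support. The counts of genes that rose, given above, include it.

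Cd40lg averaged 55.9 in knockout-labelled node cells, against 6.33 in culture (log2 fold change 3.01, SE 0.27), and 33.5 in wild type node cells, against 6.23 in culture (log2 fold change 2.25, SE 0.15). Tnf differed by 3.73 (SE 0.24) in knockout-labelled and 1.69 (SE 0.20) in wild type cells on the log2 scale, higher in the node. The 2 receptors of costimulation went opposite ways in wild type cells. Tnfrsf9 fell to 14.6 in the node, against 45.0 in culture (log2 fold change -1.57, SE 0.12), and Cd27 rose to 170, against 105 in culture (log2 fold change 0.69, SE 0.13). In knockout-labelled cells Tnfrsf9 fell by 2.10 on the log2 scale, and Cd27 did not pass (156 in the node and 125 in culture, adjusted p = 0.167 by limma).

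Tnfsf10 and Lta were placed differently in the 2 genotypes. Tnfsf10 fell in wild type node cells, to 9.19 against 15.7 in culture (log2 fold change -0.69, SE 0.15), and rose in knockout-labelled node cells, to 45.1 against 13.6 in culture (log2 fold change 1.68, SE 0.16). Lta averaged 8.85 in wild type node cells and 9.88 in culture and did not pass, and in knockout-labelled cells it averaged 49.5 in the node and 12.96 in culture (log2 fold change 1.82, SE 0.33, adjusted p = 0.00424 by limma, 0.0624 without culture library 2). The interaction above is the test of these differences. In wild type cells Tnfsf8 (68.4 in the node and 37.1 in culture) and Fas (13.8 in the node and 8.51 in culture) rose, and Fasl (2.09 in the node and 5.67 in culture) fell. In knockout-labelled cells these 3 did not pass. Among the other receptors, the largest difference in both genotypes was that of Tnfrsf8, which encodes CD30, the receptor of Tnfsf8, with 8.35 in the node and 134 in culture in knockout-labelled cells and 7.36 in the node and 108 in culture in wild type cells (log2 fold change -3.90 and -3.71). In wild type cells 1 of 5 other ligands rose and 1 fell, 3 of 16 other receptors rose and 4 fell, and 4 of 26 adaptors rose and 4 fell. Over all genes tested in these cells, 13.5% were higher and 17.5% lower. Tnfrsf4 rose to 144 in the node, against 50.1 in culture, and Traf5, an adaptor of CD27 and OX40, to 26.4, against 6.16. In knockout-labelled cells 2 of 5 other ligands rose and 1 fell, 4 of 14 receptors rose and 1 fell, and 9 of 26 adaptors rose and 4 fell. Over all genes tested in these cells, 13.7% were higher and 15.3% lower. Tnfsf14 there had 73.4 in the node and 6.35 in culture (log2 fold change 3.30, SE 0.24, adjusted p = 4.33e-05 by limma). Dendritic cell markers summed to 11.2 to 20.7 over the node OTII libraries and to 1.11 to 1.99 over the cultures, with H2-Aa, the 1 tested, higher in the node in both genotypes. The part of such cells in these differences was not tested.

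Over all 6 groups the genes stood in different orders, given here as levels with no test. Tnf, Lta, Tnfsf10 and Tnfsf11 had their highest mean in knockout-labelled node cells, where the lowest library lay above every library of the next group. For Tnfsf10 the next groups were airway (18.2), wild type culture (15.7) and knockout-labelled culture (13.6), which overlapped, and then wild type node (9.19) and node reporter cells (7.65), which overlapped. Tnf had its next level in wild type node cells (15.2), apart from both neighbours, then in the cultures (3.18 in knockout-labelled and 4.09 in wild type ones), which overlapped, and had 0.871 in node reporter cells. Its RPKM rests on transcripts of 1647 bases in reporter and 1600 bases in OTII tables, the only such difference among the 10 genes. Lta had overlapping levels in the knockout-labelled culture (12.96), the wild type culture (9.88) and wild type node cells (8.85), and was lower in node reporter cells (3.66). Node reporter libraries listed 12177 to 12982 genes at 0, against 9432 to 10128 in OTII libraries. The low levels of Tnf and Lta in node reporter cells carry this limit.

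Tnfsf8, Cd40lg and Fasl stood highest in reporter cells, whose airway and node ranges overlapped for all 3. Tnfsf8 averaged 253 ± 46.0 in airway and 207 ± 23.1 in node reporter cells (SD, n = 3 each), the highest level of the 10 genes, against 54.1 to 68.4 in node OTII cells and 37.1 to 39.7 in cultures. Cd40lg averaged 87.2 in airway and 89.1 in node reporter cells, and Fasl 25.0 in airway and 23.0 in node reporter cells. Tnfrsf9 was highest in node reporter cells (98.4 ± 25.9, SD, n = 3), apart from the cultures (44.9 and 45.0) and the airway (32.95), which overlapped, and lowest in node OTII cells. Fas was highest in the airway (24.5 ± 6.93, SD, n = 3), apart from the rest, whose neighbouring ranges overlapped from 13.8 in wild type node to 7.27 in node reporter cells. Cd27 varied least, with group means of 105 to 170 and every neighbouring pair overlapping.

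The genes whose levels ran most like each of the 10 were ranked by Pearson's r of log2(scaled RPKM + 1) over the 17 libraries, among 8304 genes. The libraries form 6 groups, so r mostly reflects group means and is a description, and for Tnf and Lta it includes the airway libraries listed at 0. Rbpj ran most like Tnfsf10 (r = 0.916), followed by Aim1l (0.901) and Ikzf3 (0.884). Sema4c and Vav2 ran most like Tnf (both 0.974), Gstp3 like Lta (0.962), Endod1 like Tnfsf11 (0.959) and Bcl2a1b like Cd40lg (0.975). Myl12b ran most like Tnfsf8 (0.979), C1galt1c1 (0.944) and Nkg7 (0.94) like Fasl, Gng12 like Tnfrsf9 (0.944), Tgm2 like Fas (0.894) and Isyna1 like Cd27 (0.827). Among the 10 themselves, the highest r were between Tnfsf8 and Fasl (0.834) and between Tnf and Lta (0.805), and the lowest was between Tnf and Tnfrsf9 (-0.837).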

How the data were processed

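RPKM tables, 1 for each of the 17 libraries, were deposited by the authors, with 24537 genes under 1 RefSeq transcript each on mm10. Per the submitters' processing notes, HISAT2 2.0.4, HOMER and DESeq2 were used. RPKM times transcript length came in whole reads below 100 reads (100% whole, tolerance 0.1), which gave the depth. Values were scaled by 1 median-of-ratios factor a library over the 6796 genes that reached an RPKM of 1 in every library. Comparisons used limma 3.58.1 in R 4.3.3 (lmFit, eBayes with trend, two-sided) on log2(scaled RPKM + 1), for genes that reached 1 in at least the number of libraries in the smaller group. P-values were Benjamini-Hochberg adjusted over all genes tested, with a threshold of 0.05. The working of the fit was checked on simulated data with the same spread for all genes. These libraries differ from that, so the check does not bear on single calls. The 10 genes and all lists were chosen with earlier results of these data known. Named beside the 10 are, per comparison, up to 4 rising and 4 falling list genes by adjusted p, and the 3 genes most like each. Other settings tried were no scaling, a pseudocount of 0.1, no filter, voom on reads, a shared spread, a block, header numbers and each library left out. The authors' comparison tables were not used here.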

Additional observations from a re-analysis of the deposited data

Results flagged for a closer look

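By limma's interaction test, 3 of the 10 genes had another response to the knockout label in the lymph node than in culture. The difference, node effect minus culture effect on the log2 scale, was 2.37 for Tnfsf10, 2.04 for Tnf and 1.95 for Lta, and 2.35% of all genes tested had a positive difference past the threshold. The call of Lta was lost in 7 of the 11 fits that left out 1 library, with no filter, by voom and with the replicate block, and that of Tnf without knockout-labelled culture 2 (adjusted p = 0.0562 by limma), where Tnfsf10 alone of the 10 passed. All 4 knockout-labelled node libraries lay above all 3 wild type ones for each gene, and the culture groups overlapped for each. The stimulus, the mouse and the time differ between node and culture and cannot be told apart here. Among the 4 knockout-labelled node libraries, the only group large enough for the check, no gene of the 10 had a library set apart from the others by Dixon's test.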

How the results depend on the processing

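No setting reversed a gene called in the comparison concerned, and in the node knockout comparison 4 to 7 of the 10 genes were called when 1 library was left out. The cause of the changes below was not tested. In the airway comparison 0 of the 10 were called with a pseudocount of 0.1, with no filter and by voom, 1 with the replicate block, and 0 to 1 with 1 library left out. Over all genes, 533 calls there became 224 with no filter, 244 by voom and 189, 187 and 141 without node library 1, 2 or 3. Of uncalled airway values, Tnf (0.06) turned to -0.002 as deposited, -0.83 with a pseudocount of 0.1 and -2.08 by voom, Cd27 (0.02) to -0.12 as deposited and Fasl (-0.003) to 0.007 by voom. With 1 library left out, uncalled airway values ranged from -0.82 to 0.49 for Tnf, -0.18 to 0.18 for Cd27, -0.17 to 0.062 for Cd40lg and -0.45 to 0.51 for Fasl. The same range in culture, knockout-labelled against wild type, was -0.47 to 0.074 for Tnfsf10, -0.56 to 0.029 for Tnf, -0.18 to 0.35 for Tnfsf8, -0.53 to 0.43 for Cd40lg, -0.15 to 0.13 for Tnfrsf9 (0.012 as deposited) and -0.016 to 0.63 for Fas. For node against culture it was -0.38 to 0.13 for Lta in wild type cells, and -0.24 to 0.41 for Fas and -0.20 to 0.45 for Fasl (-0.027 with the replicate block) in knockout-labelled cells. For the difference of effects 1 to 4 of the 10 were called with 1 library left out, and Lta was lost with no filter (adjusted p = 0.0742 by limma) and by voom (0.0594). In the node knockout comparison Fasl was lost with no filter (adjusted p = 0.0562 by limma) and with the spread taken from all OTII libraries (0.0506), and Tnfrsf9 passed by voom (0.0491). In the airway and node knockout comparisons same-numbered libraries did not deviate together (r of -0.32 to 0.03), so a replicate block pairs nothing known. Some node libraries with other numbers did, knockout-labelled 1 with wild type 2 (0.438) and knockout-labelled 2 with wild type 3 (0.497). Both pairs share a second header number, and other pairs that share it had r of -0.064 to 0.203. Pairs that do not share it had r of -0.39 to -0.171, except knockout-labelled 4 with wild type 1 (0.261). What the second number stands for is not given in the sources used here. Same-numbered wild type node and culture libraries had -0.011 (number 1) and 0.333 (number 2). With the block, calls over all genes in the node went to 636, against 1965 without it, Tnfsf11 (adjusted p = 0.0694), Cd40lg (0.122) and Fasl (0.0984) were lost there and Tnfrsf9 passed (0.0309), 3 of the 14 family list genes called there kept the call (Ltb, Tnfsf14 and Tnfrsf1a), with Tnfrsf4 at 0.0578 and Tnfrsf1b at 0.0693, and the interaction of Lta was lost (0.0891, with 166 calls over all genes, against 442 without the block). In culture the block gave 65 calls over all genes and the crossed pairing 8, added after same-numbered libraries were seen to deviate in opposite directions (r of -0.19). Leaving out a library gave 1013 and 1046 calls in the node without wild type library 2 or 3, 1 to 63 in culture, and 199 to 285 for the difference of effects without wild type node library 2 or 3, wild type culture 1 or knockout-labelled culture 2. Treating header numbers as a term, also added after the data were seen, moved Tnfsf8 (adjusted p = 0.0358) and Fas (0.0206) past the threshold with the second number. Over all genes, node against culture gave 3448 calls in wild type cells (2192 to 2247 without 1 node library) and 3251 in knockout-labelled cells (1932 with the block, 1788 and 1696 without 1 culture library). In wild type cells the call of Fasl was lost with no filter (adjusted p = 0.0556 by limma). With 2 to 4 libraries a group and 8 to 21 reads in culture for Tnfsf11, precision is limited for low genes.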
